A study of Mus musculus with 2 samples.

Results

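The genes of oxidative phosphorylation were compared between uterine epithelium from Stat3 knockout mice and from control mice, collected in the morning on pregnancy day 4. The members were taken from the gene symbols of the Affymetrix array: every probe set annotated with 1 symbol that begins with Nduf, Uqcr, Atp5 or Cox and a digit, or that reads Sdha, Sdhb, Sdhc, Sdhd, Cyc1 or Cycs. This gave 92 genes, read by 171 probe sets, of the 12393 genes that a probe set of 1 symbol names. The symbol rule takes in 11 assembly factors, which are not part of the finished complexes, beside 81 subunits and carriers. Cox7a2l, a factor that joins complexes, is counted among the 81.

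The study had 2 samples. The knockout sample is labelled Stat3 knockout and the control sample control, and the shared title names Stat3 flox control mice, so the control animals appear to carry a floxed Stat3 allele. The sources used here do not give the Cre driver, the strain or the age of the mice, and the collection text mentions day 4 or day 5. Each sample was 1 array (Mouse Genome 430A 2.0) hybridised with pooled total RNA, for which the design text gives n = 3. Epithelial fragments were released with trypsin and by squeezing the tissue. The protocol for RNA extraction speaks of stromal cells of human endometrium, which disagrees with the organism and cell type given elsewhere. With 1 array per group no difference has a replicate check, no p-value was computed, and values are described by size only.

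Oxidative phosphorylation makes most of the ATP of a resting cell. Complexes I and II pass electrons from NADH and succinate to ubiquinone, complex III passes them to the small soluble protein cytochrome c, and complex IV passes them to oxygen. Protons pumped by complexes I, III and IV drive complex V, the ATP synthase. Most subunits are encoded in the nucleus and a small core in mitochondrial DNA. In the uterus, epithelial cells change on day 4 from division to a receptive, secretory state.

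The values are MAS5 signals, the background-corrected brightness of a probe set on a linear scale, and both arrays had been brought to the same trimmed mean (150.1). A signal under 14.0, the 40th percentile of all signals, was raised to that floor before a ratio was taken. Stat3 itself had signals of 186 and 160.0 in the knockout, against 582 and 430.0 in the control, in its 2 probe sets over the floor. It was not established whether these lie in the exons removed. All 10 epithelial markers were over the floor on both arrays, 6 with a ratio over 0 and 4 under it. Krt8 and Krt18 had signals of 4289 and 4202 in the knockout, against 4220 and 3180 in the control, while Epcam, Elf3 and Krt7 had 2335, 432 and 460.3 in the knockout, against 3003, 842 and 1592 in the control. The 24 probe sets named for poly-A spike-in transcripts had a median log2 ratio (knockout over control) of 0.20, with a range of -0.33 to 1.06. The 18 probe sets of hybridisation spike-ins had a median of 0.090. Spike-in ratios were taken without the floor.

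A ratio was taken for 89 of the 92 members, those with a signal over the floor on either array. The median log2 ratio was -0.23 over these 89 members, against 0.048 over all 8304 genes measured. A log2 ratio under 0 was found in 67 of 89 members (75.3%), against 46.6% of all genes measured. The quartiles of the members were -0.48 and -0.0082, and those of all genes were -0.40 and 0.46. The members therefore lay mostly below 0 by small amounts. In a mixed RNA sample, fewer cells of a type and less RNA per cell cannot be told apart.

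Large differences were not more frequent among the members than elsewhere on the array. At least 2-fold lower signals in the knockout were seen for 4 of 89 members (4.49%), against 9.92% of all genes measured. Of 89 members, 1 (1.12%) was at least 2-fold higher, against 7.37% of all genes. At a limit of 1.5-fold, 14 members (15.7%) were lower, against 18.6% of all genes, and 3 (3.37%) were higher, against 19.4%. The share past 1.5-fold in the lower direction was thus close to that of the array, and the share in the higher direction was smaller.

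**Figure D1:**
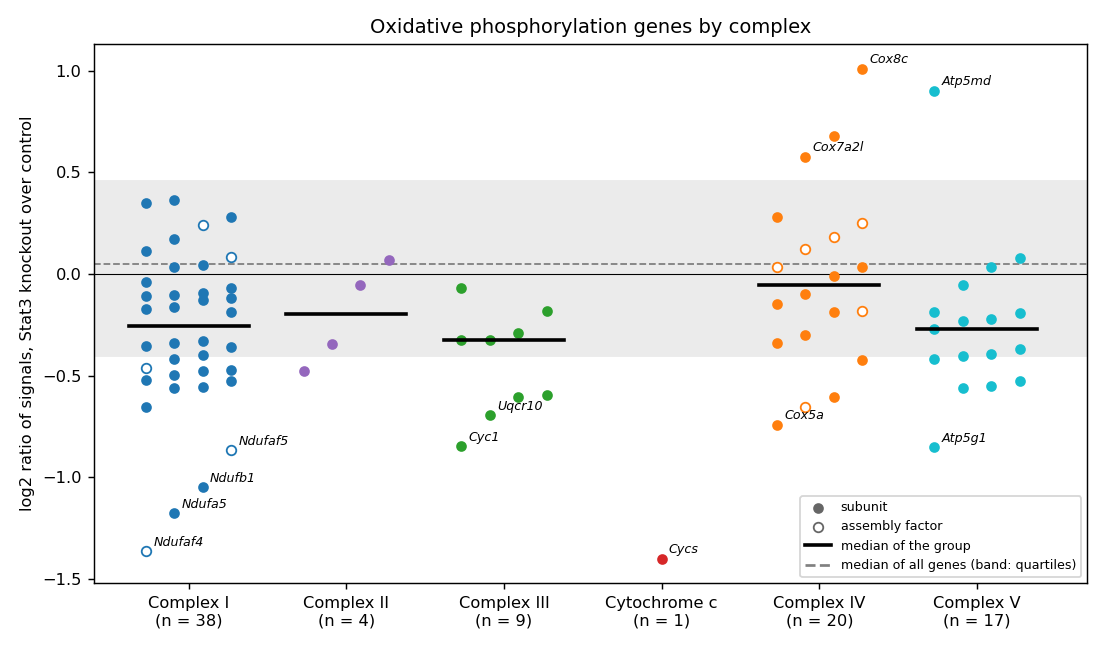
Log2 ratio of signals (Stat3 knockout over control, vertical axis) of the 89 measured members, grouped by complex; each point is 1 gene, open points are assembly factors, black lines are group medians, and the grey band and dashed line give the quartiles and median of all 8304 genes. All 9 complex III points lie under 0, cytochrome c lies lowest of all points, and complex IV is spread on both sides of 0.

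By complex, the median log2 ratio was -0.26 for the 38 genes of complex I, -0.20 for the 4 of complex II, -0.33 for the 9 of complex III, -0.053 for the 20 measured genes of complex IV and -0.27 for the 17 of complex V. Ratios under 0 were found in 29 of 38, 3 of 4, 9 of 9, 11 of 20 and 14 of 17 genes. Among all genes measured the share was 46.6%, and the 55% of complex IV was near it. The complex IV median differed from the others by 0.15 to 0.27, and no test of that difference exists with these arrays. Over alternative settings it lay between -0.19 and 0.035, so its sign was not fixed. These settings kept the assembly factors, which the symbol rule places in complexes I and IV only. Without them the median was -0.12 for the 14 measured genes of complex IV, Cox7a2l still included, and -0.19 for the 33 of complex I. The complex IV median thus lay closer to that of complex I.

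Promoter sequences of 75 of the 92 members were found in a RefSeq table (GRCm38.p6), in windows that reach from upstream of the start site into the gene. They were richer in G and C, with a median of 59.3% over members, against 53.3% over 27025 genes. The number of CG pairs had a median of 20 over members, against 8 over all genes. These 27025 genes are all those with a promoter entry, whether or not the array measured them. Motif shares were not adjusted for this composition, and the NRF1, ETS, YY1, E-box and GC box motifs each hold a CG pair. Short motifs were searched on both strands, and matches of different motifs may overlap. The NRF1 motif GCGCANGCG, the site of a factor known to drive many respiratory genes, was found in 20 of 75 members (26.7%), against 7.03% of all genes. The ETS motif CCGGAAG, read by GABP, was found in 21 members (28%), against 9.93%, and the YY1 motif ATGGCGG in 11 (14.7%), against 4.69%. The STAT motif TTCNNNGAA was found in 5 members (6.67%), against 9.55%, the ERR motif AAGGTCA in 7 (9.33%), against 5.38%, and the E-box CACGTG in 6 (8%), against 8.09%. CCAAT was found in 30 members (40%), against 41.1%, and the GC box GGGCGG in 36 (48%), against 38.2%. These matches describe letters and not binding.

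The 20 members with the NRF1 motif had a median log2 ratio of -0.38, against -0.18 for the 54 measured members without it. Shortening this motif after a first search had added Cycs, the member with the lowest ratio, to those with it. For the STAT motif the medians were -0.36 with (5 members) and -0.19 without (69 members), and for YY1 -0.36 with (11 members) and -0.19 without (63 members). For the ETS motif they were -0.19 with (21 members) and -0.22 without (53 members), for ERR -0.27 with (7 members) and -0.19 without (67 members), and for the E-box -0.29 with (6 members) and -0.21 without (68 members). For CCAAT they were -0.13 with (30 members) and -0.38 without (44 members), and for the GC box -0.16 with (36 members) and -0.30 without (38 members). None of these differences between members was tested. The promoters of Cycs, Ndufaf4, Cox5a and Atp5g1 are shown because these genes had the lowest ratios of the carrier, the assembly factors, complex IV and complex V. Those of Atp5md and Cox7a2l are shown because these genes had higher signals in the knockout. All are written 5′ to 3′ along the gene's strand, in lower case, with matches to any of the 8 motifs in capitals.
Cycs, chr6:50566520-50566819, minus strand: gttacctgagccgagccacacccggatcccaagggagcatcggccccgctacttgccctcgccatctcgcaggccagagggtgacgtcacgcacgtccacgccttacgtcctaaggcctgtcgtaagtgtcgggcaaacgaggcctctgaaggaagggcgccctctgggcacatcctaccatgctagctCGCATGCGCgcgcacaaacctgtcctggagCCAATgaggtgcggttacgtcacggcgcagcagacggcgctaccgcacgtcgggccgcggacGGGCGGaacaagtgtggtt
Ndufaf4, chr4:24897833-24898132, plus strand: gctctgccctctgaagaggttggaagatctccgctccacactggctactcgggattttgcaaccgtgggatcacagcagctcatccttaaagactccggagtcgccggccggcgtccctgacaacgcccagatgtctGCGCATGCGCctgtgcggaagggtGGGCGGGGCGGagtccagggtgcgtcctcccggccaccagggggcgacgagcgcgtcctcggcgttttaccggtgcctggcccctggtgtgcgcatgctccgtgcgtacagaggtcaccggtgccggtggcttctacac
Cox5a, chr9:57520982-57521281, plus strand: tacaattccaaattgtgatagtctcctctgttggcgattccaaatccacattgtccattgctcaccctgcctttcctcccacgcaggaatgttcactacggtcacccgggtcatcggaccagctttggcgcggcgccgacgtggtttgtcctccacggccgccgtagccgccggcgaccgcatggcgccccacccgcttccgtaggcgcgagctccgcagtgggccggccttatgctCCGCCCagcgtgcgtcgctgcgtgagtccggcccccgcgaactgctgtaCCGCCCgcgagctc
Atp5g1, chr11:96075582-96075881, minus strand: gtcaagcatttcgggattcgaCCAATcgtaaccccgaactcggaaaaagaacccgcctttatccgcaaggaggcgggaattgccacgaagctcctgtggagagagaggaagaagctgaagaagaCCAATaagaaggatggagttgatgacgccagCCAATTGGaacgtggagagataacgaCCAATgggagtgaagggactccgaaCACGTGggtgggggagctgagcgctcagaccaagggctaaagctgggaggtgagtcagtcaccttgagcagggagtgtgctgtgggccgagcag
Atp5md, chr19:47090598-47090897, minus strand: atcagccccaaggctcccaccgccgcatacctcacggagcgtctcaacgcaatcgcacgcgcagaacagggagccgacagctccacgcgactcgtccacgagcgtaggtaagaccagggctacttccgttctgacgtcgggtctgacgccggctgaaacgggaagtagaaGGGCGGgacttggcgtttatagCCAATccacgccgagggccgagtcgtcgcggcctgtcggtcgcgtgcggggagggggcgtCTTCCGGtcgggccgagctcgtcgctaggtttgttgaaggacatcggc
Cox7a2l, chr17:83514284-83514583, minus strand: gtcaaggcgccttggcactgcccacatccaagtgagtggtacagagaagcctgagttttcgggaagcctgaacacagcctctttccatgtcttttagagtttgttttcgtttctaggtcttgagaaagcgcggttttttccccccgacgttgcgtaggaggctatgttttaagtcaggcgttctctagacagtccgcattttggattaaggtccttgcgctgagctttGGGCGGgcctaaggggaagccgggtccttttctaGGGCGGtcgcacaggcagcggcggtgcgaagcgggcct
In Cycs the capitals are 1 NRF1 match on the other strand, 1 CCAAT box and 1 GC box. In Ndufaf4 they are 2 overlapping NRF1 matches and 2 GC boxes that share a base. Atp5g1 has 5 CCAAT matches and 1 E-box, and Atp5md 1 GC box, 1 CCAAT box and 1 ETS match 3 bases after the start site. Cox5a and Cox7a2l have 2 GC boxes each and no match to the 7 other motifs in this window.

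Cytochrome c, the mobile carrier between complexes III and IV and a trigger of caspase activation when released from mitochondria, had the lowest ratio of all members. Its gene Cycs had a signal of 841 in the knockout and 2223 in the control, which was 2.64-fold lower (log2 ratio -1.40). The promoter of Cycs held 1 match to the NRF1 motif, found only after that motif was shortened. The other Cycs probe sets had signals of 471 and 264 in the knockout, against 1700 and 818 in the control, with log2 ratios of -1.85 and -1.63. All 3 probe sets were thus past 2-fold in the same direction. The testis form Cyct, outside the symbol rule, was under the floor on both arrays, with signals of 6.30 in the knockout and 5.39 in the control.

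Complex III had lower signals throughout. Its catalytic subunit cytochrome c1, encoded by Cyc1, had a signal of 515 in the knockout and 928 in the control, or 1.80-fold lower. Uqcrfs1, the Rieske iron-sulphur protein that takes electrons from ubiquinol, had 784 in the knockout and 982 in the control (1.25-fold lower). The core protein genes Uqcrc1 and Uqcrc2 were 1.51-fold lower (731 in the knockout, 1107 in the control) and 1.25-fold lower (967 in the knockout, 1213 in the control). Among the small accessory subunits, Uqcr10 was 1.62-fold lower (494 in the knockout, 800.2 in the control) and Uqcrq 1.52-fold lower (473 in the knockout, 721 in the control). The bright accessory subunit genes Uqcrb and Uqcrh differed less. Uqcrb had 4672 in the knockout and 5302 in the control, and Uqcrh had 1406 in the knockout and 1719 in the control. Uqcr11 had 883 in the knockout and 925 in the control, the smallest difference of the 9 genes.

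In complex I, the 6 core subunits measured all had log2 ratios under 0, against 46.6% of all genes measured. Their median was -0.42. The 3 of the arm that takes electrons from NADH had ratios between -0.53 and -0.47. Ndufv1, which holds the flavin, had a signal of 329 in the knockout and 474 in the control. Its partner Ndufv2 had 829 in the knockout and 1190.2 in the control, and Ndufs1, the largest iron-sulphur subunit, had 265 in the knockout and 368 in the control. The 3 others, Ndufs3, Ndufs7 and Ndufs8, which lie on the way to ubiquinone, had ratios between -0.36 and -0.093.

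The 27 accessory subunits of complex I, which surround and stabilise the core, had a median of -0.16. Of these, 20 had a ratio under 0, against 46.6% of all genes measured. Ndufa5 was 2.26-fold lower, with signals of 198 in the knockout and 448 in the control, and its other probe set gave 186 in the knockout and 427 in the control. Ndufb6 was 1.58-fold lower (609.6 in the knockout, 961 in the control). Ndufb1 was 2.07-fold lower, but from a dim signal of 33.0 in the control, with 15.96 in the knockout, just over the floor. The highest ratios of the complex, 0.37 and 0.35, belonged to Ndufv3, with 919 in the knockout and 714 in the control, and to Ndufc2, with 4477 in the knockout and 3509 in the control. Ndufa3 and Ndufa1, also among the bright accessory genes, had 2315 and 1862 in the knockout, against 2245 and 1533 in the control. All 4 of these genes had ratios over 0.

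Of the 5 complex I assembly factors, Ndufaf4 had the lowest ratio, with a signal of 72.2 in the knockout and 186 in the control, or 2.57-fold lower. Its other probe set gave 44.2 in the knockout and 132 in the control. Ndufaf5, which hydroxylates the core subunit NDUFS7 during assembly, was 1.83-fold lower (45.4 in the knockout, 82.8 in the control). Ndufaf1 had 112 in the knockout and 155 in the control, while Ndufaf3 had 191 in the knockout and 161 in the control, and Ndufaf7 84.1 in the knockout and 79.3 in the control. Assembly factors of complex I therefore lay on both sides of 0.

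Complex II, succinate dehydrogenase, is shared with the tricarboxylic acid cycle. Its catalytic subunits lay near 0: Sdha, the flavoprotein, had 924 in the knockout and 880.1 in the control, and Sdhb, the iron-sulphur subunit, 907 in the knockout and 941 in the control. The membrane anchor genes had lower ratios. Sdhd had 561 in the knockout and 780.1 in the control (1.39-fold lower), and Sdhc 176 in the knockout and 223 in the control (1.27-fold lower). Their dimmer probe sets gave log2 ratios of -0.13 and -0.57.

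In complex IV the nuclear subunits differed among themselves. Cox5a was 1.67-fold lower, with 1929 in the knockout and 3227 in the control, and its 3 probe sets had log2 ratios of -0.84 to -0.74. Ndufa4, first assigned to complex I and now counted as a subunit of complex IV, was 1.52-fold lower (1256 in the knockout, 1913 in the control). Cox6c had 2034 in the knockout and 2574 in the control. Cox5b had 2415 in the knockout and 2584 in the control in its brightest probe set, with log2 ratios down to -0.46 in the other 3.

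The opposite direction was seen for Cox7a2l, which encodes the factor SCAF1 that joins complexes III and IV into supercomplexes. Its signal was 2993 in the knockout and 2005 in the control (1.49-fold higher), just under the 1.5-fold limit, and its 2 other probe sets had 3101 and 2285 in the knockout, against 1756 and 1397 in the control, with log2 ratios of 0.82 and 0.71. Cox7c was 1.60-fold higher from a dim probe set (70.4 in the knockout, 44.0 in the control). The other Cox7c probe set had 19.1 in the knockout and 14.4 in the control. By their names, 2 of the Cox7a2l probe sets read several transcripts of the gene and the brightest may also read similar sequences.

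Several complex IV subunits exist as a widely expressed form and a form of muscle, lung or testis. The widely expressed Cox4i1 had 2738 in the knockout and 2672 in the control, while Cox4i2, known from lung, had signals under the floor on both arrays (11.1 in the knockout, 5.47 in the control). Cox6a1 had 3953 in the knockout and 3976 in the control, and the heart and muscle form Cox6a2 stayed below it (9.01 in the knockout, 2.31 in the control). Cox7a2 had 2596 in the knockout and 3483 in the control (1.34-fold lower). The muscle form Cox7a1 was below it in the control only (17.03 in the knockout, 12.4 in the control), a ratio of at least 1.21-fold higher. Cox8a had 1329 in the knockout and 1513 in the control, and the muscle form Cox8b stayed below it as well (0.968 in the knockout, 0.316 in the control). Cox6b1 had 2446 in the knockout and 3017 in the control, and the testis form Cox6b2 lay close to the floor (15.5 in the knockout, 17.2 in the control). Cox8c, another testis form, was the only member at least 2-fold higher (2.02-fold, with 33.8 in the knockout and 16.8 in the control), and both signals were dim. Each tissue form was thus under the floor or close to it on at least 1 array.

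Of the 6 complex IV assembly factors, which insert copper and haem or place subunits in the membrane, Cox18 was 1.58-fold lower (90.8 in the knockout, 143 in the control). The 5 others had log2 ratios of -0.18 to 0.25. Cox17, the copper chaperone, had 1120.4 in the knockout and 1028 in the control.

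In complex V, the 5 genes of the F1 head and central stalk had ratios between -0.37 and -0.053. Atp5b, which encodes the catalytic beta subunit, had 2188 in the knockout and 2269 in the control. Atp5a1, the alpha subunit, had 1378 in the knockout and 1618 in the control. Atp5c1, the gamma subunit, had 1996 in the knockout and 2575 in the control in its brightest probe set, and 24.8 in the knockout and 18.2 in the control in a dim one, the opposite direction.

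Subunit c, which forms the rotor ring, is encoded by 3 genes that in mammals give the same mature protein. Atp5g1 was 1.81-fold lower, with a signal of 492 in the knockout and 888 in the control. Atp5g2 had 909 in the knockout and 1216 in the control (1.34-fold lower), and Atp5g3 2677 in the knockout and 3523 in the control (1.32-fold lower). All 3 genes lay on the same side of 0. In the peripheral stalk, which holds the head still, Atp5o (1.48-fold lower) and Atp5j (1.32-fold lower) had ratios under 0. Atp5pb had 3050.3 in the knockout and 2891 in the control, and Atp5h 2377 in the knockout and 2317 in the control.

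Among the 5 small membrane subunits of complex V, Atp5md stood on the other side of 0. It encodes a short protein known in mammals to help hold dimers of the synthase together, and it had a signal of 1638 in the knockout and 877 in the control, or 1.87-fold higher. Only 1 probe set reads it. Atp5mpl, another short membrane subunit, had 712 in the knockout and 1027 in the control (1.44-fold lower), Atp5k 978 in the knockout and 1432 in the control (1.46-fold lower), and Atp5l and Atp5j2 were 1.14-fold and 1.16-fold lower.

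**Figure D2:**
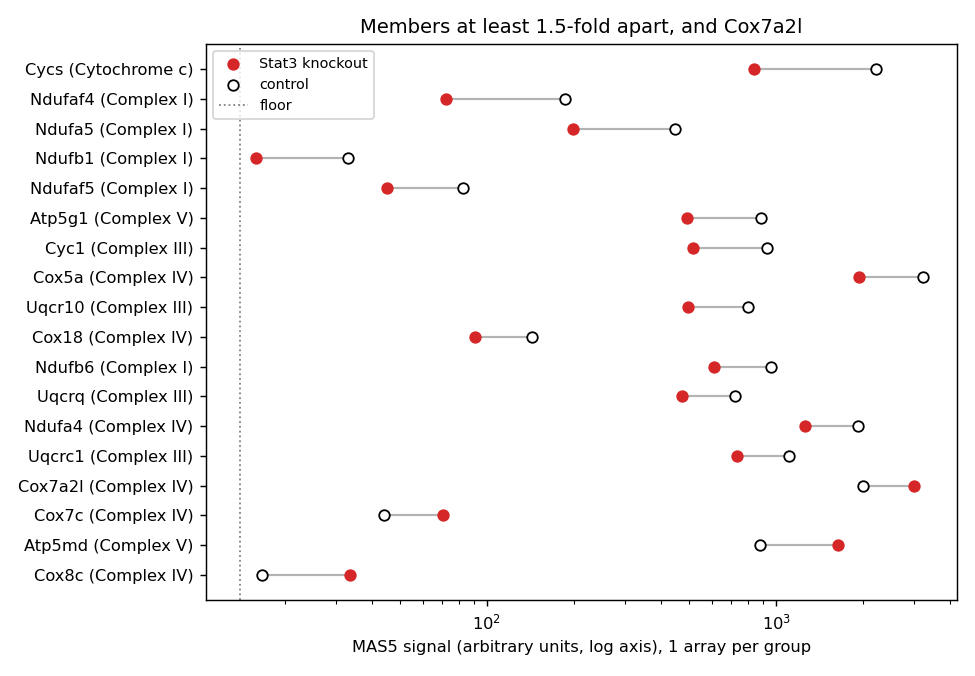
MAS5 signals (log axis, arbitrary units) in the Stat3 knockout (red) and the control (open) of the 17 members at least 1.5-fold apart and of Cox7a2l, from the lowest ratio at the top to the highest at the bottom; the dotted line is the floor of 14.0. Cycs, Cox5a and Ndufa4 are lower at signals over 800, while Ndufb1 and Cox8c lie close to the floor.

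The spread between probe sets of the same gene covers neither animals nor arrays. Between the arrays, the log2 ratios of the poly-A spike-ins ranged from -0.33 to 1.06 and those of the hybridisation spike-ins from -0.26 to 0.36. Unlike the members' ratios, these were taken without the floor. In 44 members with 2 or more probe sets over the floor on both arrays, log2 ratios of the same gene had a pooled SD of 0.17, against 0.31 in 2853 genes of the whole array. In 31 of the 44 members all probe sets were under 0, in 5 all were over 0 and in 8 they disagreed. All probe sets pointed the same way in 81.8% of these members, against 75.3% of the 2853 genes, of which 918 had all probe sets under 0 and 1231 all over 0. Median signals over all 92 members were 848 in the knockout and 984 in the control, against 47.2 and 50.4 over all 12393 genes. Agreement of probe sets was not compared with genes of like brightness. Ndufa7 had the widest range, 0.87, over 5 probe sets with log2 ratios of -0.32 to 0.55. Many single ratios, such as those of Cox4i1, Sdhb and Atp5b, were smaller than the members' SD of 0.17.

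**Figure D3:**
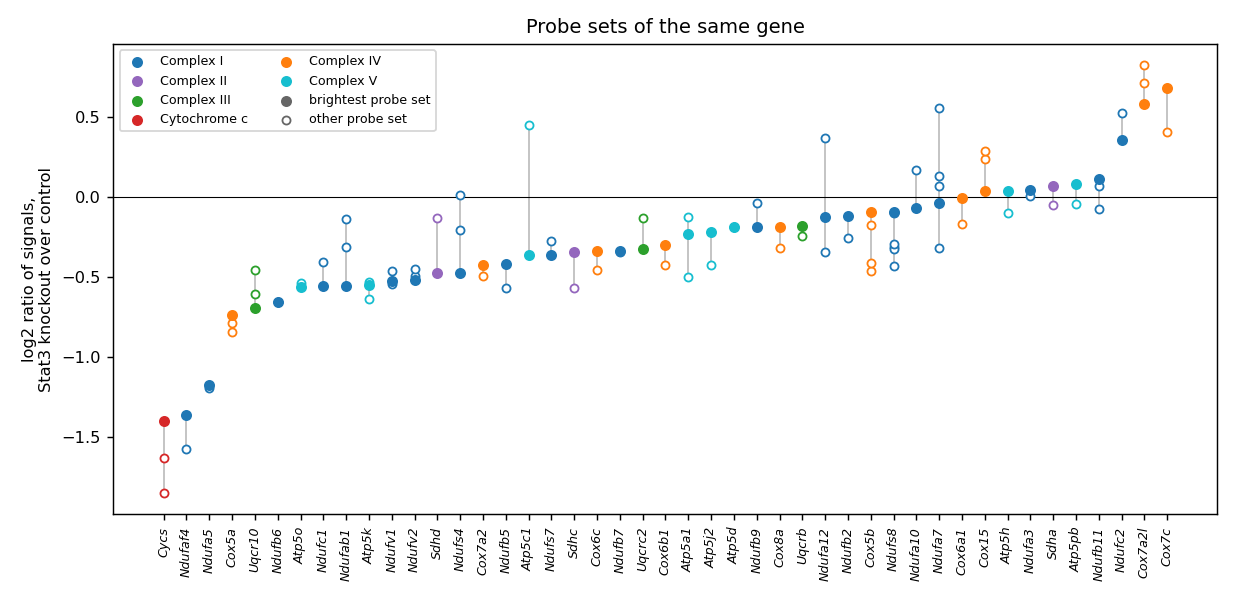
Log2 ratio (Stat3 knockout over control, vertical axis) of every measured probe set of the 45 members with 2 or more, filled for the brightest and open for the others, ordered by the brightest; colours give the complex. The 3 Cycs probe sets and the 2 of Ndufaf4 all lie under -1.2, the 3 Cox7a2l probe sets all lie over 0, and those of Atp5c1, Ndufa12 and Ndufa7 lie on both sides.

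Ratios were also set against signal strength. Across the 89 measured members, which share both arrays, the Pearson correlation of mean log2 signal and log2 ratio was 0.015. Among members with a mean signal of at least 1000, 31 of 42 had a ratio under 0 and the median was -0.19, against 279 of 588 and a median of 0.026 for all genes that bright. At least 1.5-fold lower were 3 of these 42 members, against 9.01% of all genes that bright, while 14 of all 89 measured members passed that limit. Subtracting a smooth trend on signal (loess) left the members' median at -0.28, against -0.020 over all genes.

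**Figure D4:**
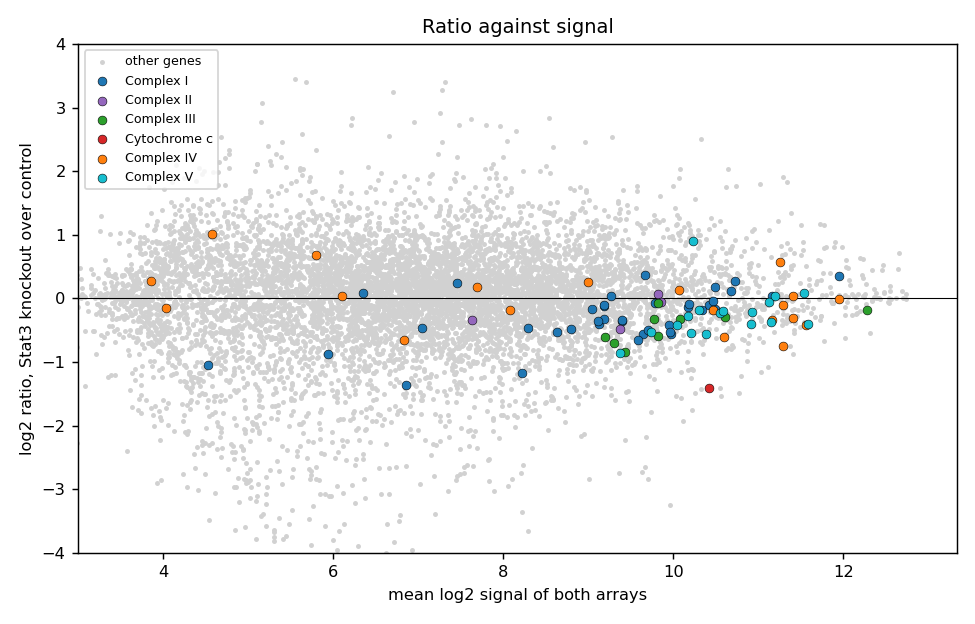
Log2 ratio (Stat3 knockout over control, vertical axis) against the mean log2 signal of both arrays for the measured members (coloured by complex) and other genes (grey); 36 other genes lie beyond the vertical limits of 4 and 54 have a mean log2 signal under 3. Most members lie between 9 and 12 on the signal axis and under 0.

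Of the subunits encoded in mitochondrial DNA, 1 was found by name among the genes, ND5, a core subunit of complex I. Probe sets with several symbols or none were not searched for these. Its signal was 2931 in the knockout and 2204 in the control (log2 ratio 0.41), on the other side of 0 from the median of the nuclear complex I genes.

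Among 18 measured regulators of mitochondrial gene expression, the median was -0.11. The 2-fold limit was passed by 2 in the lower direction, against 9.92% of all genes, and by 1 in the higher, against 7.37%. Pprc1, a coactivator of the PGC-1 family that acts with NRF1 in growing cells, had a signal of 27.2 in the knockout and 155 in the control (log2 ratio -2.51). Ppargc1b, another coactivator of that family, had 14.4 in the knockout, just over the floor, and a dim 41.8 in the control (-1.54). Ppargc1a had 34.9 in the knockout and 38.1 in the control. The DNA-binding factors Nrf1 and Gabpa had 34.6 and 203 in the knockout, against 37.3 and 219 in the control. Tfam, which packages mitochondrial DNA and starts its transcription, had 209 in the knockout and 233 in the control, and Tfb1m, a mitochondrial ribosomal RNA methyltransferase, 344 in the knockout and 145 in the control (1.25). The brightest of the list were Yy1 (785 in the knockout, 711 in the control) and Hcfc1 (229 in the knockout, 365 in the control).

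Of 36 measured assembly factors and cofactor genes outside the symbol rule, the median was -0.24. The 2-fold limit was passed by 1 gene in the lower direction, against 9.92% of all genes, and by 0 in the higher, against 7.37%. Timmdc1, an assembly factor of complex I, had 55.8 in the knockout and 122 in the control (log2 ratio -1.13). Coa3 and Higd2a, which act on complex IV, had 1794 and 1337 in the knockout, against 1536 and 1283 in the control.

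The tricarboxylic acid cycle feeds NADH and succinate to the chain. Of its 21 measured genes, pyruvate dehydrogenase included, the median was -0.10. The 2-fold limit was passed by 2 in each direction, against 9.92% of all genes in the lower and 7.37% in the higher. Idh3a, the catalytic subunit of NAD-dependent isocitrate dehydrogenase, had 221 in the knockout and 669 in the control (log2 ratio -1.60), and Idh2 had 78.1 in the knockout and 186 in the control (-1.25). Pdk1, a kinase that inhibits pyruvate dehydrogenase, had 98.1 in the knockout and 39.5 in the control (1.31). Another such kinase gene, Pdk2, had 34.3 in the knockout and 9.87 in the control, under the floor, and was at least 2.44-fold higher. Mdh2 and Cs, the brightest of the list, had 2146 and 1963 in the knockout, against 2301 and 1643 in the control.

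Of 19 measured carriers and channels, the median was -0.11. The 2-fold limit was passed by 1 in each direction, against 9.92% of all genes in the lower and 7.37% in the higher. The ADP/ATP carrier Slc25a5, which exports the product of complex V, had 1944 in the knockout and 3311 in the control (log2 ratio -0.77), and the phosphate carrier Slc25a3 1945 in the knockout and 2794 in the control (-0.52). The mitochondrial creatine kinase gene Ckmt1 had 76.9 in the knockout and 350.1 in the control (-2.19), and the sulphite oxidase gene Suox 263 in the knockout and 103 in the control (1.35).

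Markers of other cell types were measured beside these values. Of 8 measured stromal markers of 9, 7 had a ratio over 0, the median was 0.42, and their summed signal was 3565 in the knockout and 2581 in the control. The 8 leukocyte markers summed to 619 in the knockout and 473 in the control, with 3 of them, Nkg7, Cd3e and Cd79a, under the floor on both arrays. Of the 5 measured, 3 (Lyz2, Csf1r and Ptprc) had a ratio over 0 and 2 (Cd52 and Cd68) under it. The 3 mesothelial markers were all higher, with a sum of 477 in the knockout and 201 in the control. Smooth muscle markers summed to 103 in the knockout and 146 in the control, with 4 of 6 under the floor, striated muscle markers to 46.3 in the knockout and 39.9 in the control, with 5 of 6 under it, and endothelial markers to 44.4 in the knockout and 50.9 in the control, with 4 of 5 under it. The 2 red cell markers on the array were under the floor. Of the 10 epithelial markers, which summed to 21953 in the knockout and 21724 in the control, Krt7 was at least 2-fold lower and Ehf at least 2-fold higher (834.6 in the knockout, 355 in the control). The part of these markers in the members' ratios was not tested.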

How the data were processed

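Total RNA of uterine epithelium was measured on 2 Affymetrix Mouse Genome 430A 2.0 arrays, 1 per group. The deposited values are intensity values per probe set on a linear scale (0.023 to 8267). They were made by MAS5 in Affymetrix software (Expression Console 1.1), per the submitters' processing notes. The sources used here do not give its settings, a scan batch or detection calls, and the number of arrays limits the precision. Beside 64 controls, 20380 probe sets had 1 gene in the platform annotation, 691 several and 1555 none. Probe sets of several genes were not used for members.

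Groups came from the genotype label. For each gene the probe set with the largest average log2 signal was kept. Signals under the 40th percentile (14.0) were set to it, log2 ratios were taken as knockout over control, and counts were made at 2-fold and 1.5-fold. Named were, per complex, the 3 brightest members, those past 1.5-fold, those under the floor, Cycs, Cyc1 and tissue isoforms, and from each related list the 2 brightest and up to 3 past 2-fold. Atp5c1, Ndufa7, Idh2 and other examples outside this rule were chosen after their values were seen. The members, lists and motifs were chosen with earlier results of these data known. Promoters came from RefSeq (GRCm38.p6). The NRF1 motif was shortened by 1 letter after a first search, which raised its share in members and in all genes and added the match in Cycs. Scripts ran in Python 3.11.15 with pandas 2.3.3 and statsmodels 0.14.6 and were tested on simulated data. Alternatives changed the scaling, the floor, the choice of probe set and the membership.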

Additional observations from a re-analysis of the deposited data

How the results depend on the processing

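The members' median log2 ratio lay between -0.33 and -0.17 over 10 alternatives and 1 more chosen after seeing the data, and the share of members under 0 between 70.8% and 79.8%, against 42.8% to 51.3% of all genes. Centring on the median moved the median of all genes to 0.11 and that of the members to -0.17. Of the members at least 1.5-fold apart, 0 changed sign where they could be measured. The count at least 2-fold higher, 1 as reported, was 0 with loess, with the floor at the 60th percentile and with the floor value added, 3 with the floor at the 20th percentile and 4 with no floor. The share of all genes at least 2-fold higher moved too, to 6.19%, 5.61%, 5.17%, 9.997% and 15.5% under these settings. The count at least 1.5-fold higher, 3 as reported, was 5, 1 and 6 with the floor at the 20th and 60th percentile and with none, against 23.3%, 16.2% and 27.4% of all genes. The genes added by lower floors were tissue isoforms with signals under 14.0. Shared probe sets were those with names ending in _a_at, _s_at or _x_at, and some of them read several transcripts of a single gene. Leaving out shared probe sets left 62 members, with 9 at least 1.5-fold lower (18.4% of all genes), and gave medians of -0.053 for complex II, -0.19 for complex IV and -0.36 for the protein import list. Among members with a mean signal of at least 1000, 1 was at least 2-fold lower and 0 higher, against 3.40% and 6.63% of all genes that bright. At 1.5-fold 3 were lower and 1 higher, against 9.01% and 17.5%, and 31 were under 0, against 47.4%. Dim signals limit Ndufb1, whose log2 ratio was -0.65 with the floor value added, Ndufaf5, -0.37 with the floor at the 60th percentile, and Cox8c, 0.64 with the floor value added. Cox7c was under 1.5-fold with 4 alternatives, with log2 ratios of 0.13 with the floor at the 60th percentile, 0.41 with shared probe sets left out, and 0.54 both with the floor value added and with the mean of all probe sets. No paired analysis was possible because each group had 1 array.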

Other observations

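Genes that bring proteins into mitochondria had a median log2 ratio of -0.46, against 0.048 over all genes measured. Of 22 measured, 19 had a ratio under 0, against 46.6% of all genes. The 2-fold limit was passed by 4 in the lower direction, against 9.92% of all genes, and by 0 in the higher, against 7.37%. Timm8a1, a small chaperone of the intermembrane space, had a signal of 79.2 in the knockout and 407 in the control (log2 ratio -2.36). Timm50, a receptor of the inner membrane translocase, had 86.4 in the knockout and 228 in the control (-1.40), and Timm10, a partner chaperone for carrier proteins, had 116 in the knockout and 298 in the control (-1.36). Tomm20, a receptor of the outer membrane, had 3448 in the knockout and 2789 in the control, and Timm23, the channel of the inner membrane, 583 in the knockout and 1019 in the control.

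Of 20 measured genes of inner membrane organisation and of mitochondrial fusion and fission, the median was -0.15. The 2-fold limit was passed by 3 in the lower direction, against 9.92% of all genes, and by 0 in the higher, against 7.37%. Chchd6, a protein of the cristae junction complex, had 20.9 in the knockout and 77.6 in the control (log2 ratio -1.89), the fusion GTPase gene Opa1 28.8 in the knockout and 72.8 in the control (-1.34), and Tamm41, which acts in cardiolipin synthesis, 89.0 in the knockout and 187 in the control (-1.07). The brightest were Micos10 (1186 in the knockout, 1364 in the control) and Mff (1189 in the knockout, 1084 in the control).

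Some probe sets name a subunit together with a related gene and were left out of the members. The one of Ndufa11 and Ndufa11b had 465 in the knockout and 872 in the control (1.88-fold lower), and that of Ndufs6 and Ndufs6b 679.9 in the knockout and 815 in the control. The 2 of the Ndufb4 group had 782 and 492 in the knockout, against 782 and 662 in the control.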
